A study of Mus musculus with 9 samples.

Results

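Pparg and 9 genes of fatty acid uptake and storage were followed in liver of KKAy mice. The genes were listed by name, and every probe set that the platform annotation assigns to one of them alone was taken. Of the 10 listed genes, 9 were measured (Pparg, Cd36, Slc27a2, Slc27a5, Lpl, Vldlr, Mogat1, Fabp4 and Adipoq), with 20 of the 45037 probe sets and among 18193 named genes in all. Lipc, the hepatic lipase, had no probe set under its name in the annotation used and is not analysed here. Pparg, Slc27a2, Slc27a5, Mogat1 and Adipoq each had 1 probe set, Lpl had 2, Cd36 had 3, Fabp4 had 4 and Vldlr had 6.

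KKAy mice carry the yellow obese agouti allele and become obese, hyperglycaemic and insulin resistant. The 9 arrays came from liver of mice aged 8 weeks in 3 groups of 3, and all 9 were of this diabetic strain. The first group is labelled as having no treatment and is called untreated here, although the protocol speaks of control mice given the carrier medium DMEM. The second received insulin at 40 µg/mL in 100 µL of DMEM into the peritoneum, and the third (BI) received the same total insulin, of which 11% had been biomineralized in situ, so BI also contains plain insulin. Groups held 8 to 12 mice by the protocol. Whether RNA of 1 mouse or of several went on an array is not stated, so p-values speak only of variation among these 9 arrays, part or all of which may be technical. Feed with 34% fat is given for 8 of the 9 arrays. The growth text of the other one, BI replicate 2, describes rats, so the main BI differences are also given without it. The time between injection and sampling and the number of injections are not given in the sources used here.

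PPARG is a nuclear receptor that pairs with RXR and switches on genes for taking up and storing fat. It is the main regulator of adipocytes, is scarce in lean liver, and is known to be raised in fatty liver of obese mice. Fatty acids reach hepatocytes as free acids, which CD36 and the SLC27 transporters take in, or within lipoproteins, whose triglyceride is cut by lipoprotein lipase and hepatic lipase or which are bound whole by receptors such as VLDLR. Fabp4 and Adipoq, typical of adipocytes, were listed with them to show how far fat tissue attached to the liver pieces could enter the values. In bulk tissue, fewer cells of a type and less RNA per cell cannot be told apart.

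Values are log2 signals per probe set as the authors deposited them, with a floor at 0. Array medians lay between 6.11 and 6.30, and no detection call was used, so it is not known whether a signal near or below these medians was above background. Levels are not compared between genes, since each probe set has its own brightness. The liver label was borne out by the hepatocyte markers. The log2 of their summed signal (10 genes) was 18.11 to 18.34 on the untreated arrays, 18.17 to 18.27 with insulin and 18.11 to 18.29 with BI, and the mean level of Alb, the serum albumin gene, was 15.32, 15.30 and 15.31. The 3' minus 5' signal of the Gapdh control, a sign of RNA quality, was 0.28, 0.31 and 0.65 on the untreated arrays (replicates 1 to 3). It was 0.55, 0.54 and 0.48 with insulin and 0.39, 0.26 and 0.42 with BI, so the treated groups did not overlap on it. Its part in the differences between BI and insulin was not tested.

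None of the 20 probe sets passed the threshold in any of the 3 comparisons (limma, adjusted p under 0.05 over all 45037 probe sets). The adjusted p of every member was 0.999 in BI against untreated and 0.9999 in the others. Among the brightest probe sets of the 9 genes, the largest differences between BI and untreated were those of Adipoq, Lpl, Cd36 and Mogat1, all with higher means in BI. For Pparg itself the interval of the difference included 0 in all comparisons. For 6 measured members the group means had the order BI, insulin, untreated (Pparg, Cd36, Slc27a2, Lpl, Mogat1 and Adipoq). For Fabp4 the order was insulin, untreated, BI, and for Slc27a5 and Vldlr it was untreated, BI, insulin.

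In BI against untreated, an unadjusted p under 0.05 was found for 5 of the 20 probe sets, beside 4.48% of all probe sets, and 0.0111% of all probe sets (5 of 45037) passed after adjustment. The BI arrays lay above all untreated arrays for 6 of the 20, where 4.94% of all probe sets did so, and below them for 0 of the 20, against 4.26%. The 6 belong to Lpl (1 of its 2 probe sets), Cd36 (2 of 3), Mogat1, Adipoq and Vldlr (1 of 6), and probe sets of 1 gene are not independent. In insulin against untreated, 1 of the 20 had an unadjusted p under 0.05 (all probe sets 4.47%), 1 was higher without overlap (5.33%) and 1 lower without overlap (3.86%), and 0.00% of all probe sets passed after adjustment. In BI against insulin, 2 of the 20 had an unadjusted p under 0.05 (4.04%), 5 were higher without overlap (4.60%) and 2 lower without overlap (5.00%), and again 0.00% passed. The median log2 difference over the 9 genes was 0.14 for insulin and 0.29 for BI against untreated, beside 0.02 and 0.0004 over all genes, and it was 0.28 for BI against insulin, beside -0.03. Both treated groups were set against the same 3 untreated arrays, so their differences are not independent. As the list was drawn up with results of these data known, these counts describe it and are no test of it.

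**Figure D1:**
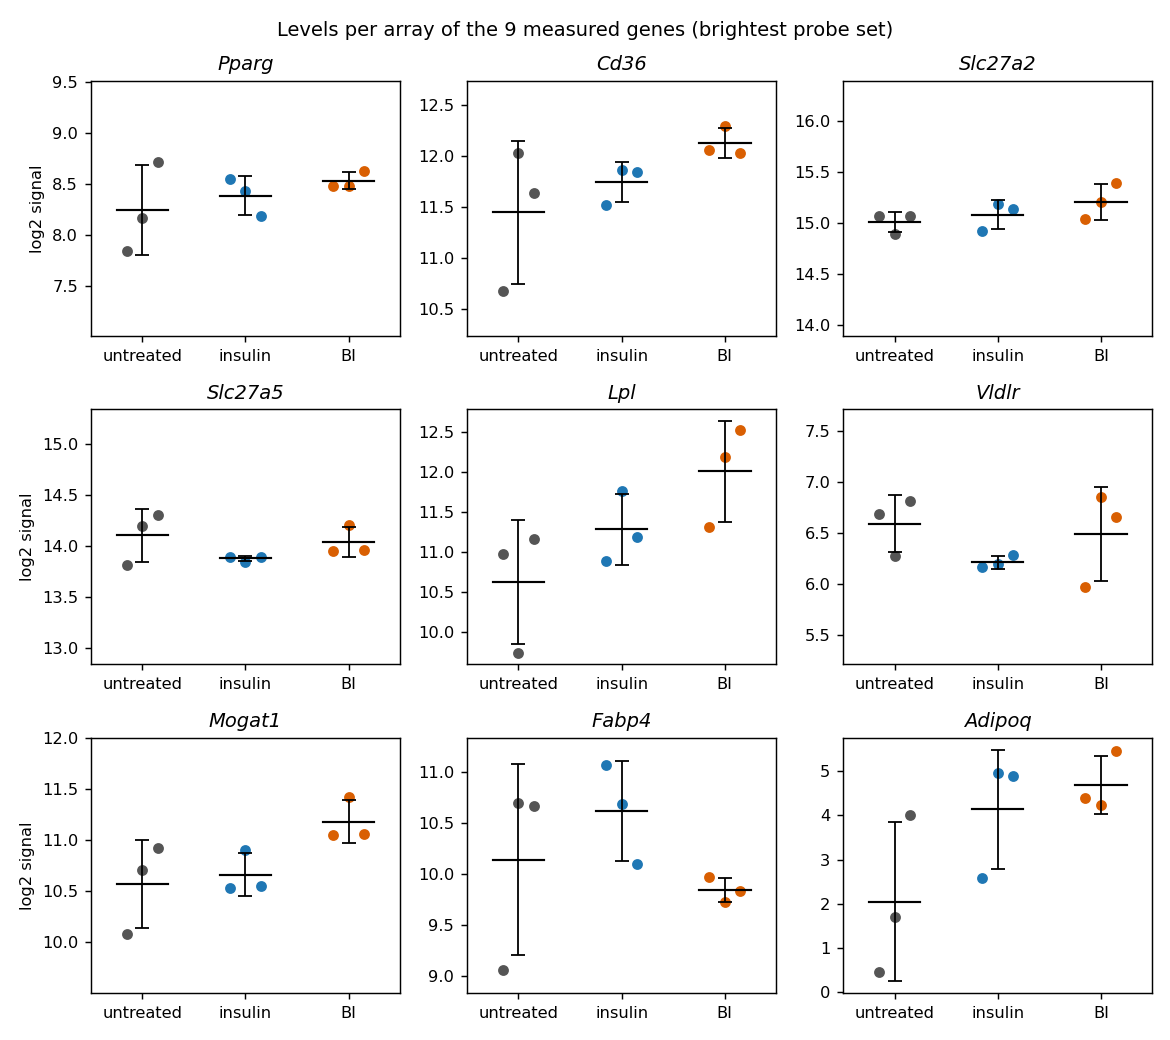
Log2 signal (vertical axis) of the brightest probe set of each of the 9 measured genes on the untreated, insulin and BI arrays (horizontal axis); points are replicates 1 to 3 from left to right, the long bar is the mean and the error bar the SD (n = 3), and each panel has its own range. The BI arrays of Cd36 (12.04 to 12.30) and Mogat1 (11.05 to 11.42) lie above all 6 other arrays, while those of Pparg (8.49 to 8.63) lie within the untreated range.

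Pparg had levels of 7.85, 8.17 and 8.72 on the untreated arrays (replicates 1 to 3), 8.55, 8.44 and 8.19 with insulin, and 8.49, 8.49 and 8.63 with BI. The groups overlapped in all comparisons, and the untreated group held both the lowest and the highest of the 9 values. The difference from untreated was +0.14 ± 0.25 with insulin (log2, limma estimate ± SE, 3 arrays per group) and +0.29 ± 0.25 with BI (95% interval -0.29 to 0.86). BI and insulin differed by 0.14 ± 0.25. Without untreated replicate 1, the BI difference was 0.09 and the insulin difference -0.06, and without BI replicate 2 the former was 0.31. Without untreated replicate 3, the highest array, they were 0.52 and 0.38. The interval of the BI difference reaches from a fall to a rise, so the arrays settle no direction for the receptor. The SD within groups was 0.44 for untreated, 0.19 for insulin and 0.08 for BI.

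Cd36 encodes the scavenger receptor that brings long-chain fatty acids into cells and is a known target of PPARG. Its brightest probe set (1423166_at) read 10.68, 12.03 and 11.64 on the untreated arrays, 11.53, 11.87 and 11.85 with insulin, and 12.06, 12.30 and 12.04 with BI. All 3 BI arrays lay above all other arrays, the closest by a narrow margin, and untreated replicate 1 stood well below the rest. The difference from untreated was +0.68 ± 0.34 with BI (1.60-fold, 95% interval -0.11 to 1.47, limma unadjusted p 0.0817) and +0.30 ± 0.34 with insulin. The other 2 probe sets gave +0.66 ± 0.38 and +0.95 ± 0.35 for BI, the latter with a limma unadjusted p of 0.0280. Without untreated replicate 1 the BI difference of the brightest probe set was 0.30 and the insulin difference -0.09, and without untreated replicate 2 they were 0.97 and 0.59. Without BI replicate 2 the BI difference was 0.60. Against insulin, BI was higher by 0.38 ± 0.34, and the groups did not overlap in any of the 3 Cd36 probe sets.

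Mogat1 encodes a monoacylglycerol acyltransferase, which joins a fatty acid to monoacylglycerol on the way to triglyceride, and it is known to rise with PPARG in fatty mouse liver. Its levels were 10.08, 10.71 and 10.92 without treatment, 10.53, 10.90 and 10.56 with insulin, and 11.05, 11.42 and 11.06 with BI. As with Cd36, the 3 BI arrays were the 3 highest, and untreated replicate 1 was the lowest. BI exceeded untreated by 0.61 ± 0.26 (1.53-fold, 95% interval 0.002 to 1.22, limma unadjusted p 0.0493) and insulin by 0.52 ± 0.26 (limma unadjusted p 0.0847). Insulin and untreated differed by 0.09 ± 0.26. The BI difference from untreated was 0.37 without untreated replicate 1, 0.78 without untreated replicate 3 and 0.49 without BI replicate 2.

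Because Cd36 and Mogat1 were the 2 measured members whose BI arrays lay above all others, the stretch from 250 bases before to 50 bases after their start is shown (RefSeq, mouse build GRCm38.p6, 5′ to 3′ on the gene's strand). It was searched on both strands for AGGTCA, the half-site that PPARG with RXR binds as a pair, and for the pair, taken as the half-site repeated in the same direction with 1 base of any kind between the copies. Capitals mark the half-site.
Cd36, chr5:17835847-17836146, minus strand: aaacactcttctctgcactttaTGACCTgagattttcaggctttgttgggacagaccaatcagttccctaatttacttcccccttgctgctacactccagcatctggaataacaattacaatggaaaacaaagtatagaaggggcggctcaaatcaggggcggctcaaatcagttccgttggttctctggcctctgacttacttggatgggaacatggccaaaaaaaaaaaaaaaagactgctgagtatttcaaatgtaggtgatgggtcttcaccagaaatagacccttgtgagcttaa
Mogat1, chr1:78510810-78511109, plus strand: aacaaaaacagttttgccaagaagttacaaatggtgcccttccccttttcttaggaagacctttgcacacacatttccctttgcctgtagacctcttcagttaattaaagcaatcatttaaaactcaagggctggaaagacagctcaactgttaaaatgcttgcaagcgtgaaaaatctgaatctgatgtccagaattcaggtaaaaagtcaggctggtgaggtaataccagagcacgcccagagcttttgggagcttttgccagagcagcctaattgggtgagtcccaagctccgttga

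The Cd36 window holds 1 half-site, read as TGACCT and starting at -228 from the gene's start, and the Mogat1 window holds 0. Windows were given for 6 measured members (9 starts). Of these, 4 hold the half-site (Cd36, Slc27a2 and 2 of the 3 Pparg starts), beside 16.3% of the 32851 windows in the table. The pair, which contains the half-site, is in 0 of the 9 and in 13 of all windows. The match describes these letters only, and the arrays do not measure binding.

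Slc27a2 and Slc27a5 encode the fatty acid transport proteins FATP2 and FATP5 of hepatocytes, which also act as acyl-CoA synthetases, FATP5 chiefly on bile acids. Slc27a2 read 15.07, 14.90 and 15.06 without treatment, 14.92, 15.19 and 15.14 with insulin, and 15.04, 15.21 and 15.39 with BI. All groups overlapped, and BI differed from untreated by 0.20 ± 0.17 (95% interval -0.20 to 0.60). Slc27a5 read 13.81, 14.20 and 14.30 without treatment, 13.89, 13.84 and 13.89 with insulin, and 13.95, 14.20 and 13.96 with BI. Its BI arrays lay above the insulin arrays by 0.16 ± 0.19, a margin smaller than the error, and both treated groups overlapped with the untreated one. The difference from untreated was -0.23 ± 0.19 with insulin (95% interval -0.66 to 0.21) and -0.07 ± 0.19 with BI (-0.50 to 0.37). Both transporters thus have intervals narrower than those of Lpl, Fabp4 or Adipoq.

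Lpl encodes lipoprotein lipase, which frees fatty acids from circulating triglyceride and is made chiefly in fat and muscle and by macrophages. Its brighter probe set (1415904_at) read 10.98, 9.74 and 11.16 without treatment, 10.89, 11.77 and 11.19 with insulin, and 11.31, 12.19 and 12.53 with BI. The BI arrays lay above the untreated ones and overlapped with insulin, whose replicate 2 exceeded BI replicate 1. BI was higher than untreated by 1.39 ± 0.48, or 2.61-fold (95% interval 0.26 to 2.51, limma unadjusted p 0.0219). Insulin was higher by 0.66 ± 0.48, and by 0.22 without untreated replicate 2. The dimmer probe set (1431056_a_at) gave +1.15 ± 0.42 for BI (limma unadjusted p 0.0266) and +0.69 ± 0.42 for insulin. On that probe set it was insulin that did not overlap with untreated, since BI replicate 1 (8.17) lay within the untreated range of 7.45 to 8.25. The BI difference of the brighter probe set was 0.94 without untreated replicate 2, its lowest array, and 1.29 without BI replicate 2. Markers of Kupffer cells and macrophages, which also make the lipase, were higher with BI than without treatment in 3 of 10 cases (median -0.08), and the log2 of their summed signal overlapped, at 13.81 to 14.59 without treatment and 13.87 to 14.72 with BI. With insulin, 8 of the 10 were higher than without treatment (median 0.36), with summed signals of 14.10 to 14.63. Their part in the Lpl values was not tested.

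The regulators of the lipase are a separate list of 20 measured genes with lipoprotein receptors, of which 0 passed in any comparison (limma). A limma unadjusted p under 0.05 was found for 1 with insulin, 1 with BI and 0 in BI against insulin. Over all probe sets the shares were 4.47%, 4.48% and 4.04%. Compared with untreated, 9 of the 20 were higher with insulin (median -0.03) and 9 with BI (median -0.08), beside 53.7% and 50.1% of all genes. Against insulin, 9 were higher with BI (median -0.04), beside 45.7% of all genes. Gpihbp1, which carries the lipase to the capillary wall and is also 1 of the endothelial markers used here, stood at +0.83 ± 0.34 with insulin, with levels of 9.01, 8.90 and 9.84 without treatment, 10.55, 10.12 and 9.59 with insulin, and 9.70, 9.27 and 9.34 with BI. Apoa5, an apolipoprotein that aids the lipase, was higher in all BI arrays (14.57 to 14.76) than in the untreated ones (13.84 to 14.35), by 0.60 ± 0.21. With insulin the difference of Apoa5 was +0.42 ± 0.21. Lsr, a receptor for triglyceride-rich lipoproteins, stood at -0.40 ± 0.19 with BI.

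Vldlr, the receptor that binds triglyceride-rich lipoproteins whole and is known to be raised by PPARG, gave no common direction across its 6 probe sets in the comparisons with untreated. The brightest, 1434465_x_at, read 6.68, 6.28 and 6.81 without treatment, 6.16, 6.20 and 6.29 with insulin, and 5.97, 6.85 and 6.66 with BI. All its groups overlapped, and it differed from untreated by -0.10 ± 0.27 with BI and by -0.38 ± 0.27 with insulin. Its insulin values, untreated replicate 2 and BI replicate 1 lay within or below the range of array medians (6.11 to 6.30). The group means of the other 5 probe sets lay between 2.99 and 5.53, below every array median. On 1417900_a_at, BI (5.75, 4.79 and 5.64) lay above untreated (3.44, 3.65 and 3.47) by 1.87 ± 0.99, while insulin spread from 0.61 to 5.11. On 1451156_s_at, insulin (4.98, 3.88 and 2.11) lay below untreated (5.55, 5.95 and 5.10) by 1.88 ± 0.75 (limma unadjusted p 0.0394), with BI at 5.63, 4.28 and 5.99. With BI, 4 of the 6 probe sets were higher than untreated and 2 lower. With insulin, 3 were higher as deposited, but 2 with quantile normalization or equal array medians, because 1 difference was near 0. In BI against insulin, 6 of the 6 were higher under each of these scalings, as deposited from 0.20 ± 1.04 to 2.40 ± 0.99 (1417900_a_at, limma unadjusted p 0.0432), and the groups overlapped on every one.

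**Figure D2:**
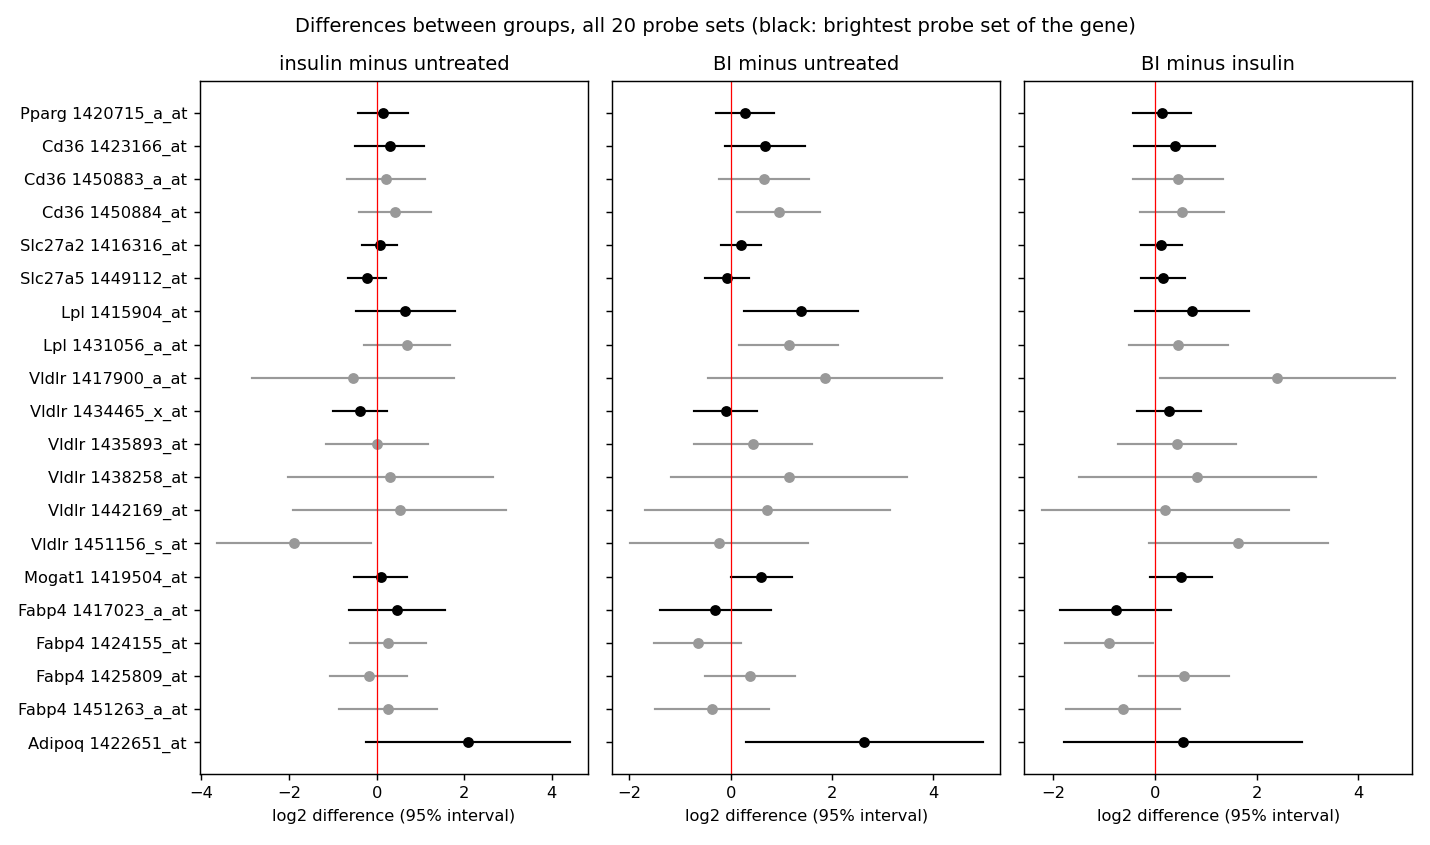
Log2 differences (points) with their 95% intervals (lines) from the limma fit for all 20 probe sets in the 3 comparisons; black marks the brightest probe set of each gene, and the vertical line marks no difference. In BI against untreated the intervals of both Lpl probe sets, 1 of 3 Cd36 probe sets, Mogat1 and Adipoq lie above 0 before adjustment for the number of probe sets, and those of Pparg, Slc27a2 and Slc27a5 include 0 in all 3 panels.

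Fabp4 encodes the fatty acid binding protein of adipocytes, which macrophages and capillary endothelium also make. Its brightest probe set (1417023_a_at) read 9.06, 10.70 and 10.67 without treatment, 11.07, 10.69 and 10.10 with insulin, and 9.97, 9.73 and 9.84 with BI. The BI arrays lay within the untreated range and below all insulin arrays. BI differed from insulin by -0.77 ± 0.47 (95% interval -1.87 to 0.32, limma unadjusted p 0.140) and from untreated by -0.30 ± 0.47. Without untreated replicate 1 the difference from untreated was -0.84 with BI and -0.07 with insulin. Without untreated replicate 2 these were -0.020 and 0.76, and without untreated replicate 3 they were -0.036 and 0.74. In BI against insulin, 3 of its 4 probe sets were lower and 1 higher, and on the dim 1424155_at the difference was -0.91 ± 0.37 (limma unadjusted p 0.0413). Of 10 measured endothelial markers, 0 were higher in BI than in insulin (median -0.48), beside 45.7% of all genes. Of these markers 0 passed or had an unadjusted p under 0.05 (limma), and 4 were lower without overlap, beside 5.00% of all probe sets. The log2 of their summed signal was 12.36 to 12.78 with BI, 12.82 to 13.21 with insulin and 12.41 to 12.98 without treatment. Kupffer cell and macrophage markers were higher in 0 of 10 cases too (median -0.30). Of these, 0 passed, 1 had an unadjusted p under 0.05 (limma), beside 4.04% of all probe sets, and 2 were lower without overlap. Their summed signals of 13.87 to 14.72 with BI and 14.10 to 14.63 with insulin overlapped. The part of these cells in the Fabp4 values was not tested.

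Adipoq encodes adiponectin, a hormone made by adipocytes. Its single probe set read 0.45, 1.69 and 4.01 without treatment, 2.59, 4.95 and 4.89 with insulin, and 4.39, 4.24 and 5.45 with BI. The BI arrays lay above all untreated ones, by 2.64 ± 1.00 (95% interval 0.31 to 4.98, limma unadjusted p 0.0314), and the insulin arrays overlapped with both groups (+2.09 ± 1.00 against untreated). All 9 values lay below the lowest array median of 6.11, so the difference separates signals in the dim range, where it is not known whether any was above background. The BI difference was 1.84 without untreated replicate 1, 3.62 without untreated replicate 3 and 2.87 without BI replicate 2.

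Of 5 defining adipocyte markers, 3 were measured (Adipoq, Lep and Retn), and their 27 values lay between 0.45 and 5.95, none at 0 and none reaching the lowest array median. Lep, the leptin gene, was at 1.84, 3.25 and 2.02 without treatment, 1.62, 1.55 and 4.23 with insulin, and 3.28, 2.52 and 1.38 with BI. Retn, the resistin gene, was at 3.94, 4.45 and 2.86, then 3.30, 3.97 and 5.70, then 2.32, 3.49 and 5.95 in the same order. Group means (untreated, insulin, BI) were 2.37, 2.47 and 2.39 for Lep and 3.75, 4.32 and 3.92 for Retn, and in both the 3 groups overlapped. As it is not known whether any of these signals was above background, they cannot show whether Lep and Retn followed Adipoq. Over the wider list of 12 markers, 9 were measured and 5 of these lay below the lowest array median on every array. Compared with untreated, 8 of the 9 were higher with BI (median 0.23) and 5 with insulin (median 0.10 as deposited and -0.002 with quantile normalization). Their summed signal, to which Fabp4 contributed most, was 9.70 to 11.14 (log2) without treatment, 10.73 to 11.43 with insulin and 10.55 to 10.81 with BI, and the BI range lay within the untreated one. Plin4, a lipid droplet coat protein of adipocytes and a target of PPARG, read 6.70, 7.76 and 7.81 without treatment, 7.49, 7.09 and 7.53 with insulin, and 8.70, 9.04 and 7.65 with BI (+1.04 ± 0.44 against untreated, +1.09 ± 0.44 against insulin). Whether attached fat tissue contributed to Lpl, Cd36 or Plin4 was not tested beyond these levels.

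**Figure D3:**
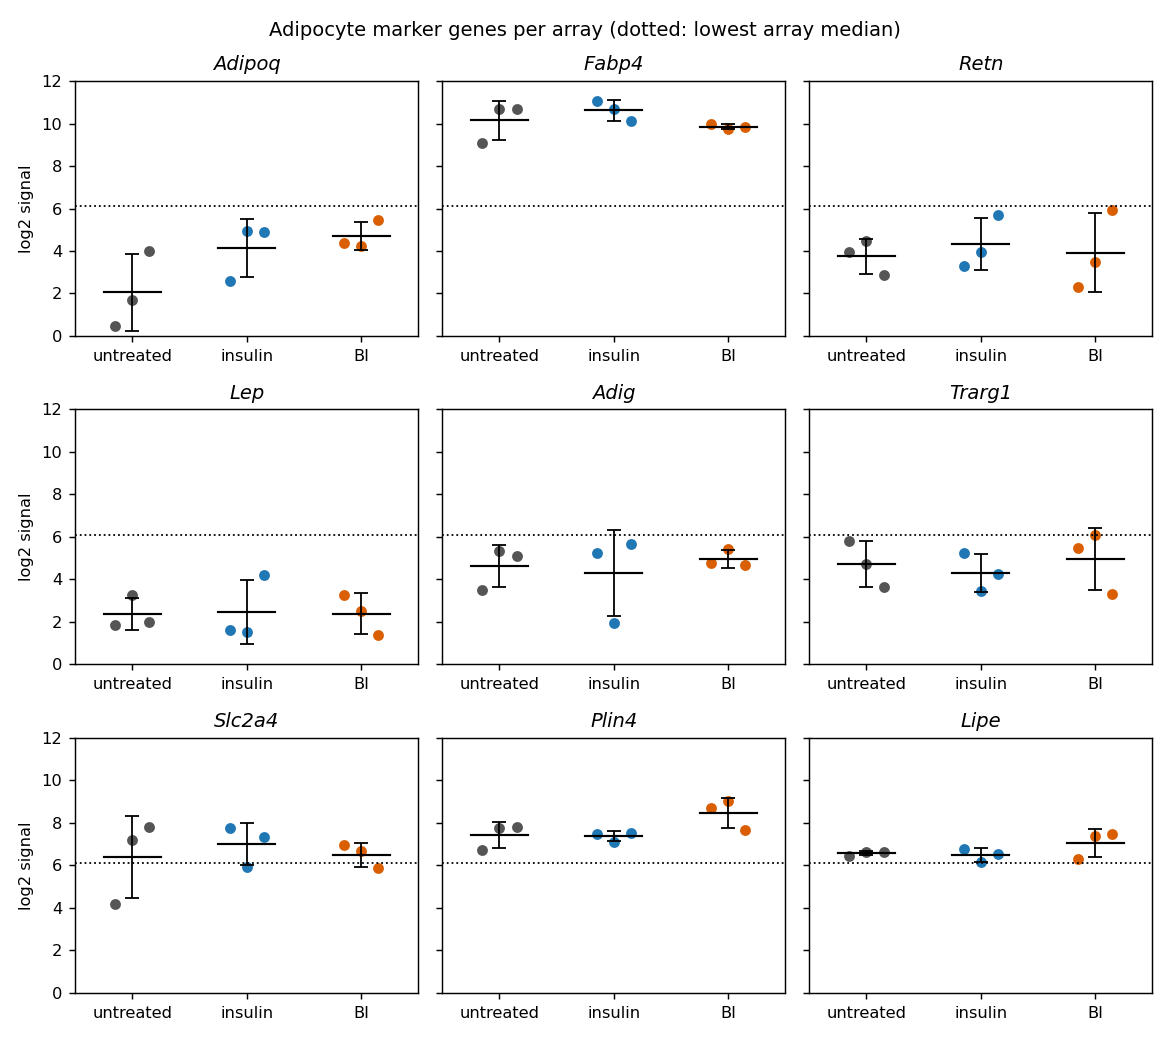
Log2 signal per array of the 9 measured adipocyte markers by group, on 1 common axis from 0 to 12; points are replicates 1 to 3 from left to right, with the mean and SD (n = 3), and the dotted line is the lowest array median (6.11). Adipoq, Retn, Lep, Adig and Trarg1 lie below that line on all 9 arrays, and Fabp4 lies at 9.06 to 11.07.

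Other genes of the pathway were taken from lists written from general knowledge, and 0 of their members passed in any comparison (limma). An unadjusted p under 0.05 (limma) was found for at most 1 gene per list and comparison, beside 4.04% to 4.48% of all probe sets. Among 17 measured PPARG targets of fatty liver and adipocytes, 11 were higher with BI than without treatment (median 0.13), 8 with insulin (median -0.05), and 13 in BI against insulin (median 0.21), where 45.7% of all genes were higher. Beside Plin4 the rule names Fitm2, which helps droplets form (+0.46 ± 0.25 with BI against untreated), Hilpda, an inhibitor of droplet lipolysis (+0.49 ± 0.26 with insulin), and Pck1, the gluconeogenic enzyme that also makes glycerol for triglyceride (-0.40 ± 0.18 in BI against insulin, groups not overlapping). Among 17 partners, coregulators and related receptors, 8 were higher with each treatment (medians -0.03 and -0.04). Only 3 of these 17 were higher in BI against insulin and 14 were lower (median -0.05). Ppargc1a, the coactivator PGC-1α, read 8.65, 8.70 and 8.80 without treatment, 7.97, 8.47 and 8.00 with insulin, and 8.12, 8.00 and 8.32 with BI, a difference of -0.57 ± 0.20 in each case. Rxrb, a partner receptor, stood at +0.49 ± 0.21 with insulin, Rxrg at +0.20 ± 0.18 in BI against insulin, and Cebpb, an adipogenic transcription factor, at -0.47 ± 0.23 with BI. Ppargc1a was thus lower without overlap in both treated groups than in the untreated one, and the treated groups overlapped with each other. It did not pass in either comparison, and both use the same 3 untreated arrays. Of the 17, 1 was lower without overlap with each treatment, beside 3.86% (insulin) and 4.26% (BI) of all probe sets. Higher without overlap were 1 with insulin (5.33%) and 0 with BI (4.94%).

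Of 18 other genes of fatty acid transport, binding and activation, 10 were higher with insulin (median 0.03, which turned to -0.02 with equal array medians) and 8 with BI (median -0.03). Against insulin, 6 of the 18 were higher with BI and 12 lower (median -0.02), where 45.7% of all genes were higher. Fabp2, a fatty acid binding protein best known from intestine, read 12.78, 12.54 and 12.17 without treatment, 12.86, 13.03 and 12.43 with insulin, and 13.15, 13.17 and 13.21 with BI. Its BI arrays were the 3 highest, by 0.68 ± 0.23 over untreated (limma unadjusted p 0.0190). Fabp5 stood at -0.87 ± 0.56 with BI. Acsl4, an acyl-CoA synthetase, was lower in BI than insulin by 0.36 ± 0.17, and Slc27a1, the transporter FATP1, was at +0.39 ± 0.32 with insulin. Of 14 glyceride acyltransferases and phosphatases, 5 were higher with insulin and 4 with BI (both medians -0.07), and 7 in BI against insulin. Mogat2, the intestinal relative of Mogat1, was at +1.80 ± 0.77 with insulin (levels of 2.83 to 4.96 without treatment and 4.71 to 6.22 with insulin) and at -1.34 ± 0.77 in BI against insulin. Its groups overlapped in all comparisons. Its untreated and BI values and insulin replicate 3 lay below the lowest array median of 6.11. Gpam, which starts triglyceride synthesis, stood at -0.52 ± 0.36 with insulin and -0.35 ± 0.36 with BI, and Gpat4 at +0.25 ± 0.20 in BI against insulin. Lpin3 stood at -0.97 ± 0.66 with BI. It read 5.78, 5.74 and 5.84 without treatment and 5.60, 3.32 and 5.53 with BI, all below the lowest array median. The low value was on BI replicate 2.

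**Figure D4:**
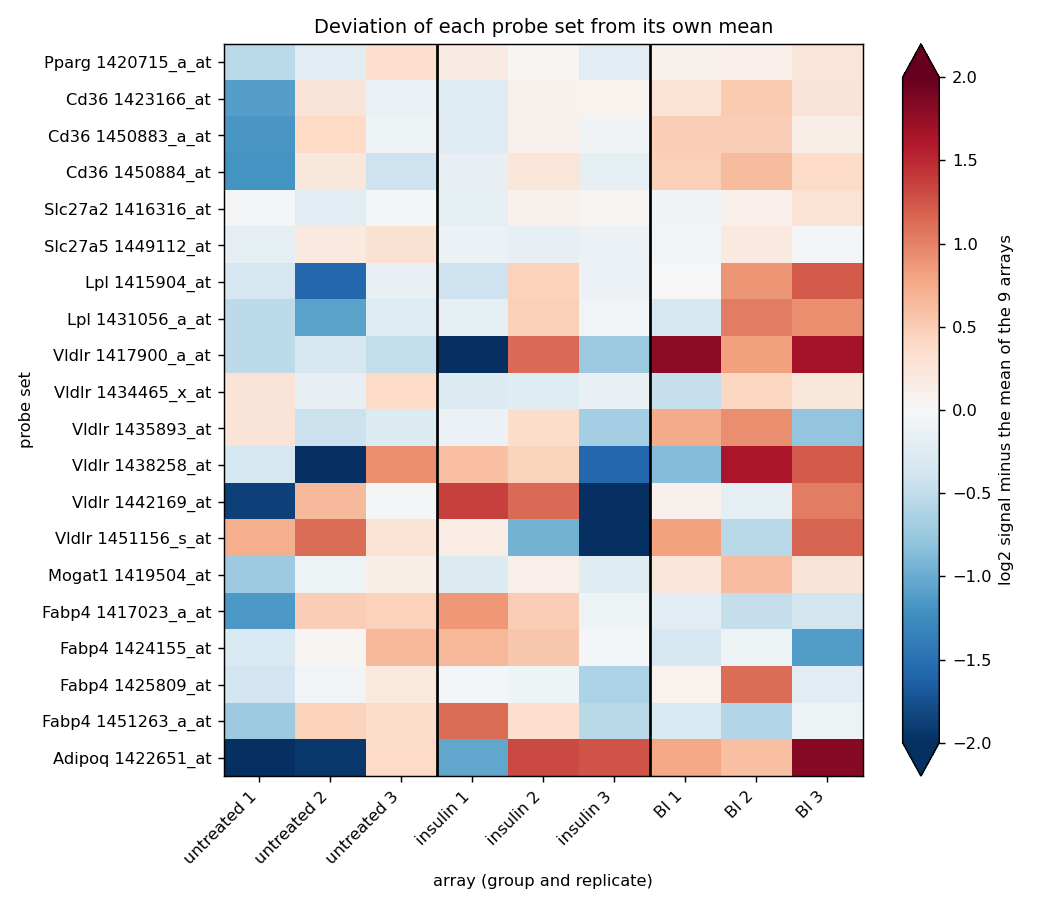
Log2 signal of each of the 20 probe sets (rows) on each array (columns) after subtraction of the probe set's mean over the 9 arrays; the colour scale runs from -2 (blue) to 2 (red), and values beyond it are drawn at its ends. Untreated replicate 1 is the lowest array for 9 of the 20 probe sets, and BI replicate 2 is the highest for 9.

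The arrays that set these differences were not spread evenly. Untreated replicate 1 had the lowest value of 6 of the 9 genes (Pparg, Cd36, Slc27a5, Mogat1, Fabp4 and Adipoq), and untreated replicate 2 that of Lpl and Slc27a2. The highest values lay on BI replicate 2 for Cd36, Mogat1 and Vldlr, and on BI replicate 3 for Lpl, Slc27a2 and Adipoq. Pparg and Slc27a5 were highest on untreated replicate 3. On untreated replicate 1 the summed signals of 5 marker lists were the lowest of the untreated group too. They were 9.70 for adipocytes (mostly Fabp4), 12.41 for endothelial cells, 13.81 for Kupffer cells and macrophages, 13.57 for stellate cells and 18.11 for hepatocytes. Those of skeletal muscle (9.21, the highest of the 9 arrays) and exocrine pancreas (8.39, with 7.61 on untreated replicate 2) were not. By the mean of log2 levels, stellate cell and hepatocyte markers were lowest on untreated replicate 2 (9.01 and 14.209) rather than replicate 1 (9.14 and 14.213). The Gapdh difference of untreated replicate 1 was 0.28. The part of these cell types in the member differences was not tested.

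To see whether arrays high in Pparg were high in the other members, 15 relations over the 9 arrays were computed, 8 with Pparg and 7 more with Adipoq. None passed after Benjamini-Hochberg adjustment (exact permutation tests, two-sided; smallest adjusted p 0.120 for Pearson's r and 0.124 for Spearman's rho). Pparg and Mogat1 had r = 0.72 (exact permutation p 0.0291, adjusted 0.120) and rho = 0.57 (exact permutation p 0.121, adjusted 0.362). Without untreated replicates 1 and 2, the arrays farthest from the median of Pparg, r was 0.34, and after subtraction of each group's mean it was 0.67. Pparg and Cd36 had r = 0.57 (exact permutation p 0.114, adjusted 0.245) and rho = 0.18 (exact permutation p 0.644, adjusted 0.858), r was -0.17 without the same 2 arrays, and 0.41 after subtraction of group means. The relation of Pparg with Cd36 thus rests on those 2 arrays, and that with Mogat1 was weaker without them. Adipoq and Lpl had r = 0.70 (exact permutation p 0.0344, adjusted 0.120) and rho = 0.83 (exact permutation p 0.00827, adjusted 0.124), and r was 0.67 without untreated replicates 1 and 2. After subtraction of each group's mean, that r was 0.44. By r, Lpl did not stand apart, since Adipoq had r = 0.70 with Cd36, 0.70 with Mogat1 and 0.67 with Slc27a2. Without the same 2 arrays these were 0.56, 0.34 and 0.85. Pparg and Adipoq had r = 0.67, and -0.24 without the same 2 arrays. Each of these relations had an adjusted p of 0.120 (exact permutation tests of r), and all Adipoq values were in the dim range. Adipoq and Fabp4, both adipocyte genes, had r = 0.15 (exact permutation p 0.687, adjusted 0.859) and rho = -0.08 (exact permutation p 0.843, adjusted 0.903), and r was -0.64 without those arrays.

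By the root mean square difference between centred values over the 9 arrays, the genes most like Pparg among 10783 candidates were Clstn3, a calsyntenin (0.10), Bace2, a protease (0.11), and Map1lc3a, an autophagy protein (0.11), where Pparg itself varied by 0.26 about its mean and the median candidate differed by 0.34. Those most like Cd36 were Rab27b (0.20), Wfdc2 (0.20) and Hs3st2 (0.21), where Cd36 itself varied by 0.45 and the median was 0.51. The closest to Lpl were the cytochrome Cyp2c38 (0.36), the kinase Sgk2 (0.37) and Lrrc51 (0.38). Lpl itself varied by 0.77, and the median was 0.80. Rab27b had 4.93 to 6.58, partly below the array medians.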

How the data were processed

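Liver RNA of 9 KKAy samples was hybridised to one-colour Affymetrix arrays after biotin labelling, per the labels' protocols. Signals had been put on the log2 scale by the authors before deposit, with software not given in the sources used here. On the linear scale every array had a 2% trimmed mean of 500.004, and 152 to 247 probe sets per array were at 0, so values were used as deposited. After removal of 64 control probe sets, 45037 were tested. Platform annotation of 34945 probe sets gave 1 symbol, 932 had several and 9160 were unnamed here; 34741 were matched by gene ID to current names. A gene's brightest probe set by mean represented it in counts.

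One limma fit (version 3.58.1, R 4.3.3; lmFit and eBayes, 9 arrays, group as the only factor, 6 residual degrees of freedom) gave differences, standard errors and 95% intervals, with Benjamini-Hochberg adjustment over all probe sets and a threshold of 0.05. The fit was tried on simulated data. The number of arrays limits precision. Members and lists were chosen with earlier results of these data known. The rule for names took all members, up to 2 genes of smallest p per list and comparison (cell type lists were used for counts and for the adipocyte, endothelial, macrophage and hepatocyte values given), and the 3 genes most like Pparg, Cd36 and Lpl among named genes at or above the median level of 6.04. Skeletal muscle and exocrine pancreas markers (10 and 8 measured) had medians of -0.02 and 0.18 in BI against untreated, and stellate cell markers (10) one of 0.11.

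The alternatives tried were equal array medians or quantile normalization, a floor at 6 or a filter at the median level, a variance trend with robust estimation, separate fits per pair of groups, the replicate number as a block, averaging the probe sets per gene, and leaving out each array.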

Additional observations from a re-analysis of the deposited data

How the results depend on the processing

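Under 17 other settings (averaging of probe sets per gene being tried for the differences only), 0 member probe sets were called in any comparison (limma), also with the replicate block. Under the block, the smallest adjusted p among the brightest probe sets of the 9 genes was 0.910 (limma). No sign that the replicate numbers pair the arrays was seen. Deviations from group means correlated at -0.03 to 0.04 for same-numbered arrays (9 pairs) and at -0.03 to 0.03 for others (18 pairs). Such correlations of 3 arrays per group cannot exclude a pairing. Over all settings, the smallest adjusted p of a gene's brightest probe set or of the mean of its probe sets was 0.597 (limma). It was that of Adipoq in BI against untreated, without untreated replicate 3. Of the differences of these brightest probe sets and means, 10 recomputed values had the opposite direction (fits that change only the error, and omissions from the group outside a comparison, cannot change a difference). Leaving out 1 array turned insulin against untreated for Pparg (range -0.056 to 0.38), Cd36 (-0.089 to 0.59), Fabp4 (-0.066 to 0.76) and Mogat1 (-0.15 to 0.27), in each without untreated replicate 1, and for Mogat1 also without insulin replicate 2. It also turned BI against untreated for Vldlr (-0.28 to 0.16) and Slc27a5 (-0.21 to 0.034) and BI against insulin for Adipoq (-0.23 to 0.96). The mean of the Vldlr probe sets gave 0.64 in BI against untreated. The causes were not tested. Over all probe sets, the 5 calls in BI against untreated became 1 with the filter, 0 with the floor, with only 2 groups fitted or with the replicate block, and 0 to 2 without 1 array. BI against insulin gave 1 with the filter and 0 to 1 without 1 array. The floor gave no value for Adipoq, and the filter none for members below it. The widest intervals were those of Adipoq and of 5 Vldlr probe sets, all dim. The dim Fabp4 probe sets 1424155_at and 1425809_at had narrower ones (SE 0.37 and 0.38).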
